A study of Homo sapiens with 18 samples.

Results

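The autophagy and mitophagy machinery was followed through 36 genes, taken by symbol from a list and looked up in a table of 35616 genes. All 36 were in the table and all 36 passed the filter on low values, which asked for at least 1 scaled TPM in at least 3 of the 18 libraries and was passed by 12005 genes in all. RNA came from HUDEP-2, an immortalised line of human erythroid progenitors that originated in cord blood and matures toward red cells in culture. Unedited HUDEP-2 cells (WT) were compared with HUDEP-2 cells in which the beta-globin gene HBB had been knocked out (HBBko), each undifferentiated, after 48 h of differentiation and after 5 d, with 3 libraries in each of the 6 groups. The labels name no treatment other than the differentiation and no agents for it. The number of HBBko clones is not given either, nor whether the 3 cultures of a group were started apart, so the p-values measure the spread between these libraries, which may be technical. The study's title concerns ATF4, MYB and gamma-globin after loss of beta-globin, and the question taken here is how the transcripts of the degradation machinery stood in both lines at each stage.

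Autophagy encloses cytoplasm or organelles in a double membrane, the autophagosome, and delivers it to the lysosome. The ULK1 kinase complex starts the process, a phosphatidylinositol 3-kinase complex around BECN1 marks the growing membrane, WIPI proteins read that mark, and ATG2 and ATG9 proteins bring lipid. Ubiquitin-like conjugation by ATG7, ATG3, ATG10, ATG5, ATG12 and ATG16L1 then attaches LC3 and GABARAP proteins to the membrane, where cargo receptors such as SQSTM1 and the mitochondrial receptor BNIP3L bind. Erythroid cells use this machinery to clear mitochondria and other organelles before the cell becomes a reticulocyte, and BNIP3L (also called NIX) is the receptor best known for that step. TFEB and FOXO3 are transcription factors known to act on autophagy and lysosome genes, GATA1 is the erythroid master factor, and ATF4 with its partner CHOP (gene DDIT3) drives autophagy genes under amino acid and endoplasmic reticulum stress.

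Promoter windows from RefSeq (GRCh38.p14) covered 250 bases before to 50 after the gene start that RefSeq gives, and 32 of the 36 genes had one. RB1CC1, MAP1LC3A, BNIP3L and PINK1 had none. The windows below are the 250 bases before the start and are shown for 5 members. GABARAPL1 had the largest rise of the members during differentiation, ATG13, NBR1 and TAX1BP1 hold the GATA motif searched for, and ATG3 holds an E-box. Capitals mark the GATA motif AGATAA or its complement TTATCT in ATG13, NBR1 and TAX1BP1, and the E-box CACGTG in ATG3. They stand at chr12:10212627-10212876 (plus strand), chr11:46617303-46617552 (plus strand), chr17:43170159-43170408 (plus strand), chr7:27739123-27739372 (plus strand) and chr3:112561963-112562212 (minus strand), and each is written 5′ to 3′ on the strand of its gene.
GABARAPL1: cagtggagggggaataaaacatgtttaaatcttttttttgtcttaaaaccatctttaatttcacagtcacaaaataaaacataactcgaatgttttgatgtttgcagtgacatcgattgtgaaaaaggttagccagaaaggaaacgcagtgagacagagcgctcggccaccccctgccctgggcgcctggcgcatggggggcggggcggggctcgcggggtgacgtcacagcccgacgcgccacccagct
ATG13: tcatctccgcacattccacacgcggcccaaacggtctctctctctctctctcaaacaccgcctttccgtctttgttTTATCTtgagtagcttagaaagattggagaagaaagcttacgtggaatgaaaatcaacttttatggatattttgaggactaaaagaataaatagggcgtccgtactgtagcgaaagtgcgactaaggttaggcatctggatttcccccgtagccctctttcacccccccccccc
NBR1: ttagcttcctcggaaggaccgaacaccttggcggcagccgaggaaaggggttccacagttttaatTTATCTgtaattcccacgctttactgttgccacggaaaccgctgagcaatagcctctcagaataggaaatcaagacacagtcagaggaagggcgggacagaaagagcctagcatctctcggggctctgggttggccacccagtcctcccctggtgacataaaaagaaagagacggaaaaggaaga
TAX1BP1: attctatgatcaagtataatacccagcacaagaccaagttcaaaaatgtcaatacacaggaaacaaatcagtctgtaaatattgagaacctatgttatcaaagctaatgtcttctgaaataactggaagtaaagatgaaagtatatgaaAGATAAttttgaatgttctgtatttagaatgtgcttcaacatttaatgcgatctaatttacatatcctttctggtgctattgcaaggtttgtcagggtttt
ATG3: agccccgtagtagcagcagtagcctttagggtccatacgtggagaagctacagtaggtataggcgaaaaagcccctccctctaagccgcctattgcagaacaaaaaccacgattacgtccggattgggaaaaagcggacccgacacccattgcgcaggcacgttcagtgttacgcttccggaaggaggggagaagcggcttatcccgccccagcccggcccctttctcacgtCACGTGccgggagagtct

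The motif AGATAA was found on either strand in 3 of 32 member windows of 300 bases and in 4.73% of the 8916 windows of all tested genes that had one. It began 174 bases before the start in ATG13, 185 in NBR1 and 101 in TAX1BP1. CACGTG was found in 3 member windows (ATG3, ATG14 and BNIP3) against 11.0% of all windows. The longer TCACGTGA, the core of the element bound by TFEB, contains CACGTG and was found in 1 member window (ATG3, beginning after the start) against 2.18%. TGATGNAA, the core of the composite element bound by ATF4, was found in 0 of 32 member windows against 1.48% of all. GTAAACA, a motif bound by FOXO proteins, was found in 0 of 32 against 2.21%. These matches describe letters in short windows only. Some windows, such as those of GABARAPL1, ATG16L1, ATG5, BECN1 and MAP1LC3B, lie inside the gene's span in GENCODE v29. Such windows need not hold the promoter used in these cells.

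Values are in scaled TPM, the authors' transcript abundance per length and library with a further scaling that the sources used here do not describe. Levels are compared between genes on the reading that this scaling acts on whole libraries. The number of reads is unknown. Log2 fold changes are given ± SE from limma on log2(scaled TPM + 1), with p-values adjusted by Benjamini-Hochberg over the 12005 genes, and folds are ratios of group means of scaled TPM. Library totals ran from 783213 to 1508342 scaled TPM. Globin transcripts took 50.5% to 52.1% of the total in WT at 5 d and 38.7% to 39.9% in HBBko at 5 d, against 1.65% to 3.84% in undifferentiated cells of both lines. Column names use thal and wen for the lines, taken here as HBBko and WT from the names alone, and the highest thal value of HBB lay below the lowest wen value at each stage. HBB transcript remained abundant in HBBko, with means of 4808, 23097 and 70806 scaled TPM at the successive stages. The WT means were 3.28-, 4.84- and 6.20-fold higher. As deposited, all 10 erythroid markers looked at rose in both lines in each interval. The smallest of these rises in WT from 48 h to 5 d was that of GATA1 (0.31 on the log2 scale). BECN1, a member with a rise of 0.31 there, turned to -0.32 when libraries were scaled to equal totals. The direction of that GATA1 change may therefore depend on the scaling. Summed markers of lymphoid (6 genes) and stromal and endothelial (6 genes) cells stayed at or under 0.727 scaled TPM. Summed myeloid markers (8 genes, with S100A9 at 0 in each library) stayed at or under 1.24. Summed megakaryocyte markers (6 genes, with PF4 and PPBP at 0 in each library) were at 4.14 to 4.58 in undifferentiated WT, 1.65 to 2.02 in undifferentiated HBBko and at or under 0.900 later, most of it ITGA2B before differentiation. Summed mast cell, basophil and eosinophil markers (8 genes, of which CLC was at 0 in each library) were at 588 to 796 in undifferentiated WT, 918 to 1053 in undifferentiated HBBko and 15.5 to 39.1 later. Within groups, libraries correlated at 0.987 to 0.998 across genes, and replicate 3 of undifferentiated WT stood apart. That library had 22376 scaled TPM of HBB, against 12517 and 12454 in replicates 1 and 2. Its globin share was 3.84%, against 2.36% and 2.29%.

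GABARAP, SQSTM1 and BNIP3L were the 3 most abundant members in both lines at 5 d. GABARAP, a membrane-bound adaptor, had a mean of 639 ± 26.8 scaled TPM in WT and 446 ± 7.16 in HBBko at that stage (SD, n = 3). In undifferentiated WT, BNIP3L (306 ± 29.5) and GABARAP (265 ± 32.4) led, and their ranges overlapped. TFEB was the lowest member and ULK2 the next lowest in each of the 6 groups. The members' values summed to 3273 to 3478 scaled TPM in WT at 5 d and 2685 to 2739 in HBBko. As a share of the library this was 0.224% to 0.232% in WT and 0.230% to 0.237% in HBBko, ranges that overlap. As a share of the library without globins it was 0.452% to 0.481% and 0.381% to 0.386%, ranges that do not. In such bulk samples, fewer cells of a type and less RNA per cell cannot be told apart.

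**Figure D1:**
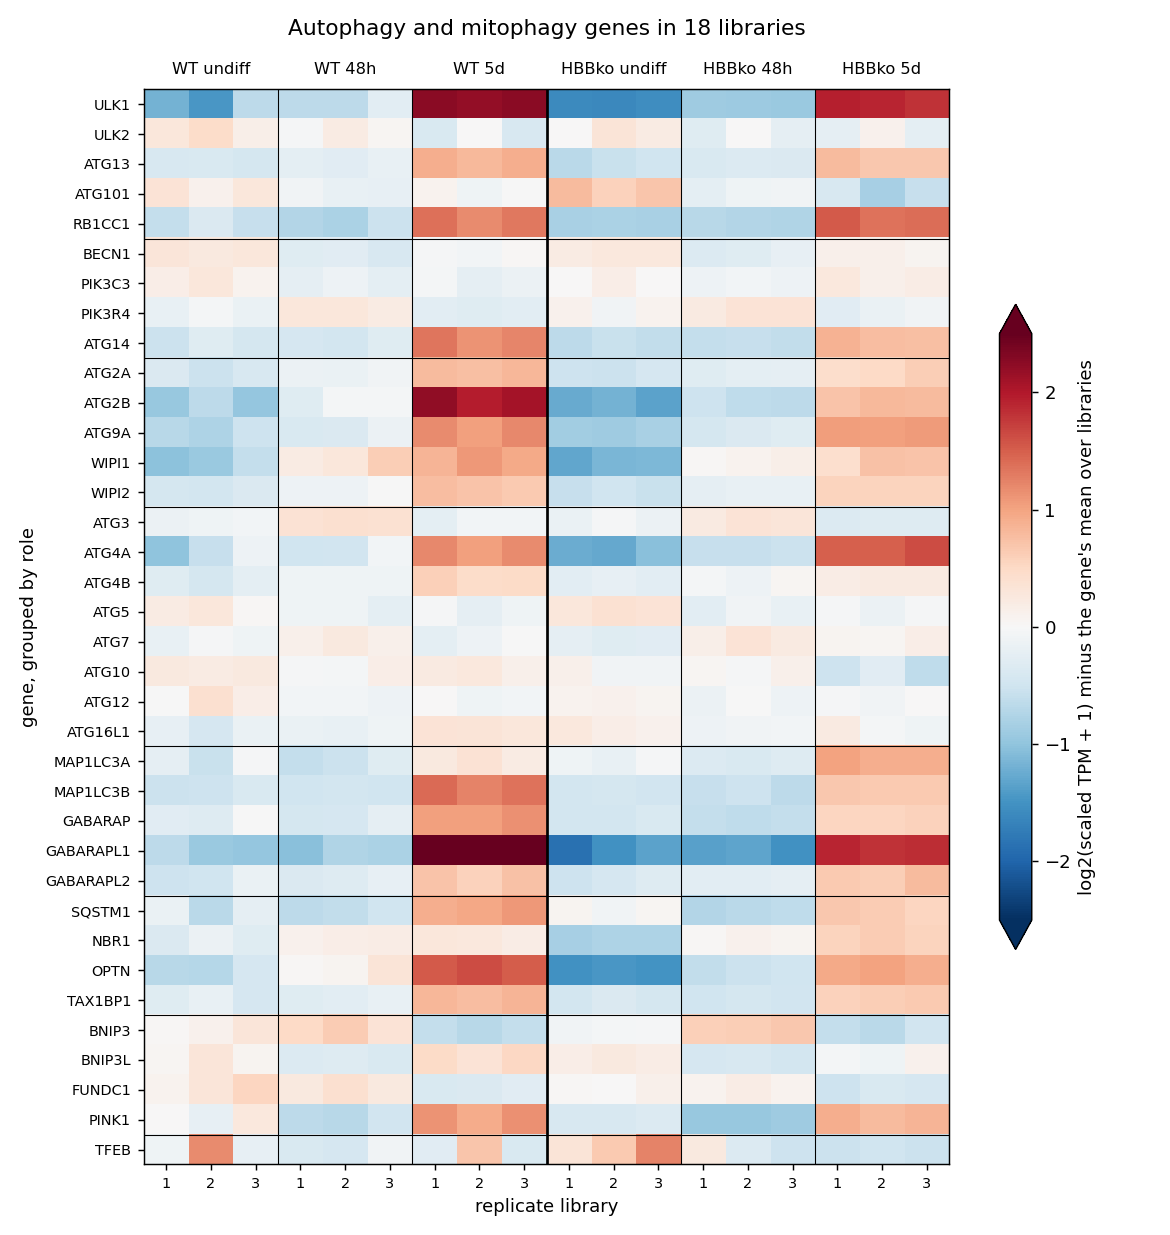
Level of each of the 36 genes (rows, grouped by role) in each of the 18 libraries (columns, replicate number below), as log2(scaled TPM + 1) minus the gene's mean over all libraries; red is above and blue below that mean. The 5 d libraries of both lines stand out in ULK1, RB1CC1, ATG2B and GABARAPL1, and BNIP3 and FUNDC1 are lowest there.

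Most of the machinery rose in both lines from 48 h to 5 d. In WT 23 of 36 members rose and 6 fell, and in HBBko 24 rose and 6 fell, where called means an adjusted p under 0.05. Over all tested genes 80.2% were called in WT (30.8% higher and 49.5% lower) and 79.7% in HBBko (30.2% higher and 49.5% lower), so the members' share called is near the background and their direction is not the background's. The median log2 fold change of the members was 0.77 in WT and 0.65 in HBBko, against -0.20 over all tested genes in each line. The groups did not overlap in 29 members in WT and 30 in HBBko, against 84.4% of all tested genes in each line. The same 22 members rose in both lines and 4 (ATG3, BNIP3, FUNDC1 and PIK3R4) fell in both. Scaling each library to an equal total moves all genes by about the same amount, to a median over all genes of -0.70 in WT and -0.56 in HBBko, and then 17 members rose and 13 fell in WT and 18 rose and 11 fell in HBBko. With median-of-ratios scaling 29 rose and 4 fell in WT, and 27 and 5 in HBBko. Under all 4 scalings (as deposited, equal totals, equal totals without globins, median of ratios) 17 members rose in both lines and the same 4 fell in both.

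The first 48 h held smaller and mixed changes. In WT 14 members rose and 9 fell (64.9% of all tested genes were called, 23.5% higher and 41.4% lower), and in HBBko 15 rose and 12 fell (65.2%, with 25.1% higher and 40.1% lower). The groups did not overlap in 21 members in WT (63.3% of all tested genes) and 30 in HBBko (76.1%). The members' medians were 0.04 and 0.07, against -0.10 and -0.09 over all tested genes. In both lines 14 members rose, among them WIPI1, OPTN, ATG2B, ULK1, ATG3 and NBR1, and 8 fell, among them BECN1, BNIP3L, PINK1 and ATG101. With equal totals 9 rose and 14 fell in WT and 11 rose and 14 fell in HBBko. With median-of-ratios scaling 17 rose and 6 fell, and 17 and 7. Under all 4 scalings ATG2B, ATG3, ATG9A, NBR1, OPTN, ULK1, WIPI1 and WIPI2 rose and ATG101, ATG5, BECN1, BNIP3L and PINK1 fell in both lines. With the replicate number as a block (same-numbered WT libraries of these stages deviated together), ULK2 (adjusted p = 0.029) and GABARAP (0.02) were called lower in WT and RB1CC1 was not called (0.059).

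**Figure D2:**
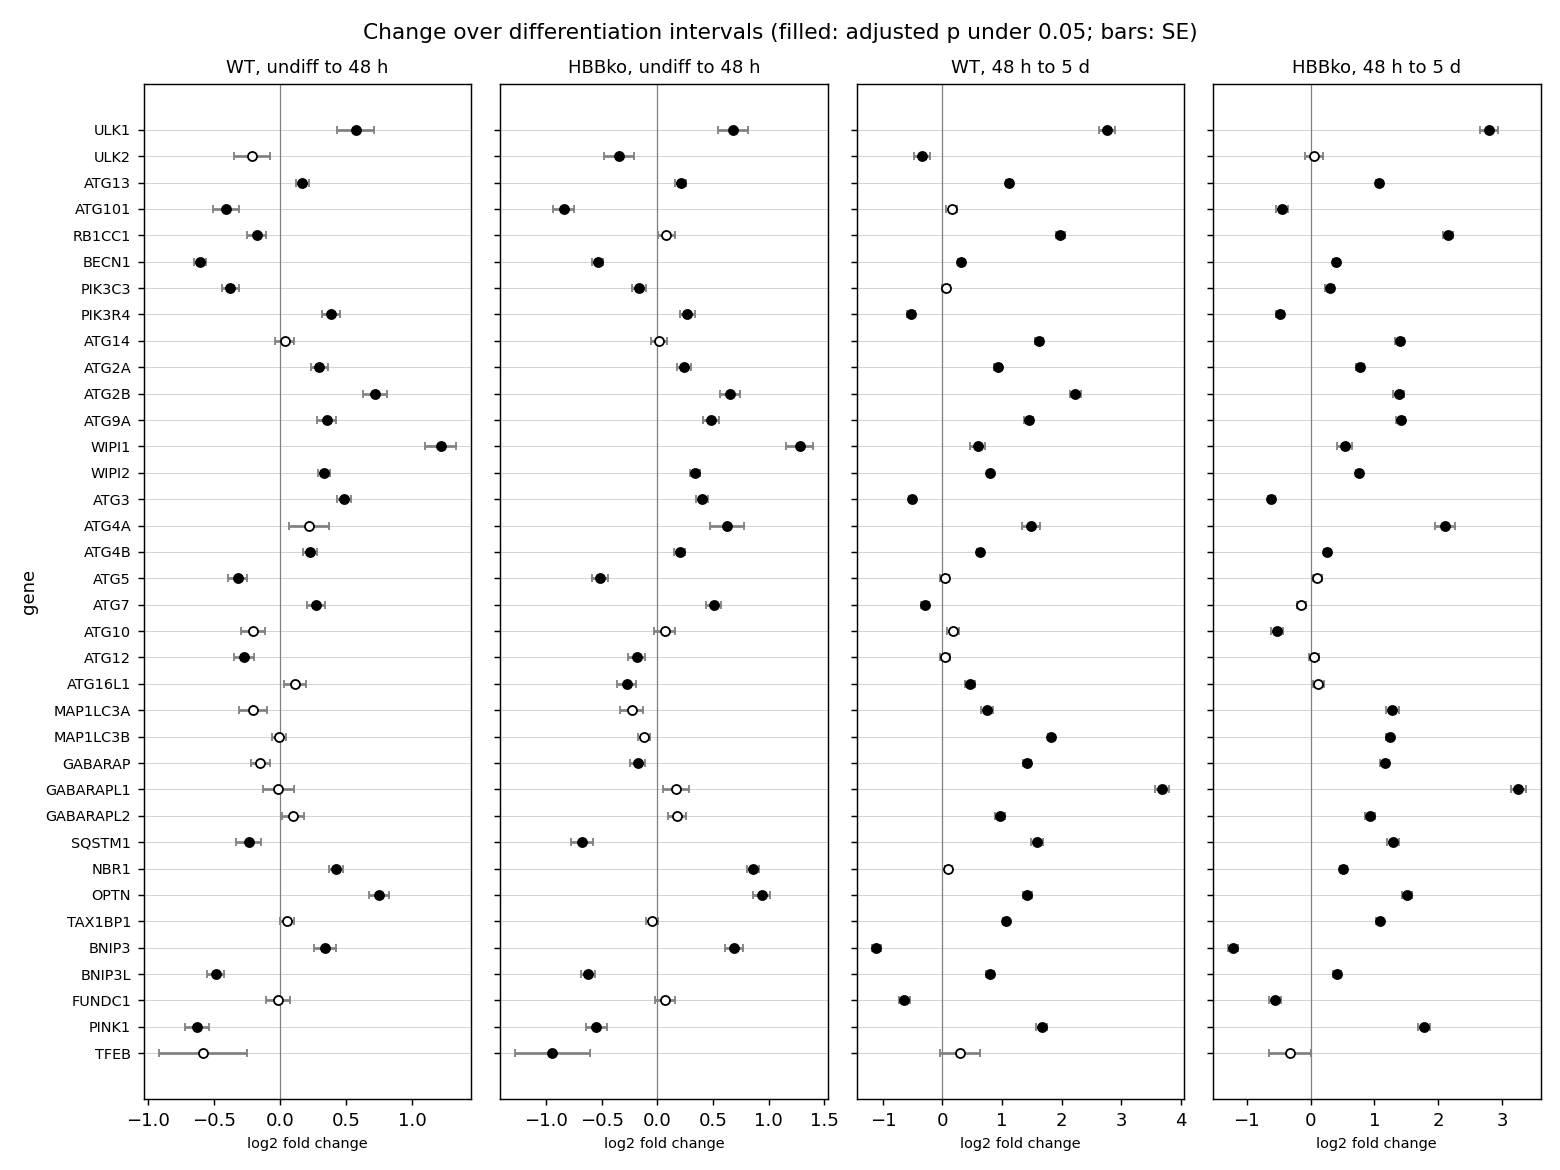
Log2 fold change (x axis) of the 36 genes (y axis) over undifferentiated to 48 h and over 48 h to 5 d in each line; points are limma estimates with bars of 1 SE, filled where the adjusted p is under 0.05, and the x axes differ in range. GABARAPL1 and ULK1 lie farthest right in the second interval in both lines, and small positive values there, such as those of BECN1, ATG4B, ATG16L1 and NBR1 in WT, turn negative when libraries are scaled to equal totals.

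The members called between the lines were mostly lower in HBBko as deposited, but with equal totals the split turned to 7 higher and 3 lower at 48 h and 16 higher and 7 lower at 5 d. Undifferentiated, 16 of 36 members were lower and 3 higher (43.3% of all tested genes were called, 20.9% higher and 22.3% lower). At 48 h 6 were lower and 0 higher (18.7% called, 9.52% higher and 9.21% lower). At 5 d 19 were lower and 6 higher (51.3% called, 26.5% higher and 24.8% lower). The groups did not overlap in 21, 18 and 27 members at the successive stages, against 46.2%, 51.9% and 59.9% of all tested genes. The share of members called was 52.8% undifferentiated, 16.7% at 48 h and 69.4% at 5 d, the second below the background and the other 2 above it. The members' medians were -0.12, -0.08 and -0.20, against -0.01, 0.02 and 0.02 over all tested genes. OPTN, GABARAPL1, ATG2B and GABARAP were lower at all 3 stages, the first 3 of them under all 4 scalings.

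The count and split of these calls move with the settings. With equal totals the median over all genes becomes 0.14 at 48 h and 0.27 at 5 d. Undifferentiated the split becomes 4 higher and 12 lower with equal totals or with median-of-ratios scaling. Of the members called at 5 d, 7 were lower (ATG10, ATG101, ATG2B, GABARAP, GABARAPL1, MAP1LC3B and OPTN) and 5 higher (ATG4A, ATG7, MAP1LC3A, NBR1 and PIK3C3) under all 4 scalings. Without replicate 3 of undifferentiated WT, the library that stood apart, 10 members were lower and 4 higher at that stage. Without replicate 3 of WT at 48 h only 3 members were lower at 48 h. When only the undifferentiated groups were fitted, 6 were lower and 2 higher. The difference between the lines itself changed over the first 48 h in 4 members, 1 upward and 3 downward (13.2% of all tested genes, 7.67% upward and 5.51% downward). It changed from 48 h to 5 d in 10, 3 upward and 7 downward (24.6%, 11.5% upward and 13.1% downward). Undifferentiated calls stand beside the marker sums of megakaryocytes and of mast cells, basophils and eosinophils given above, which did not overlap between the lines at that stage and whose part in the calls was not tested. Some erythroid markers also differed between the lines as deposited. ALAS2 was lower in undifferentiated HBBko (-0.42). KLF1 and EPOR were lower at 48 h (-0.46 and -0.34) and at 5 d (-0.39 and -0.33), where AHSP was higher (0.30). HBA1 and HBA2 were called at no stage. The part of these differences in the calls was not tested either.

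**Figure D3:**
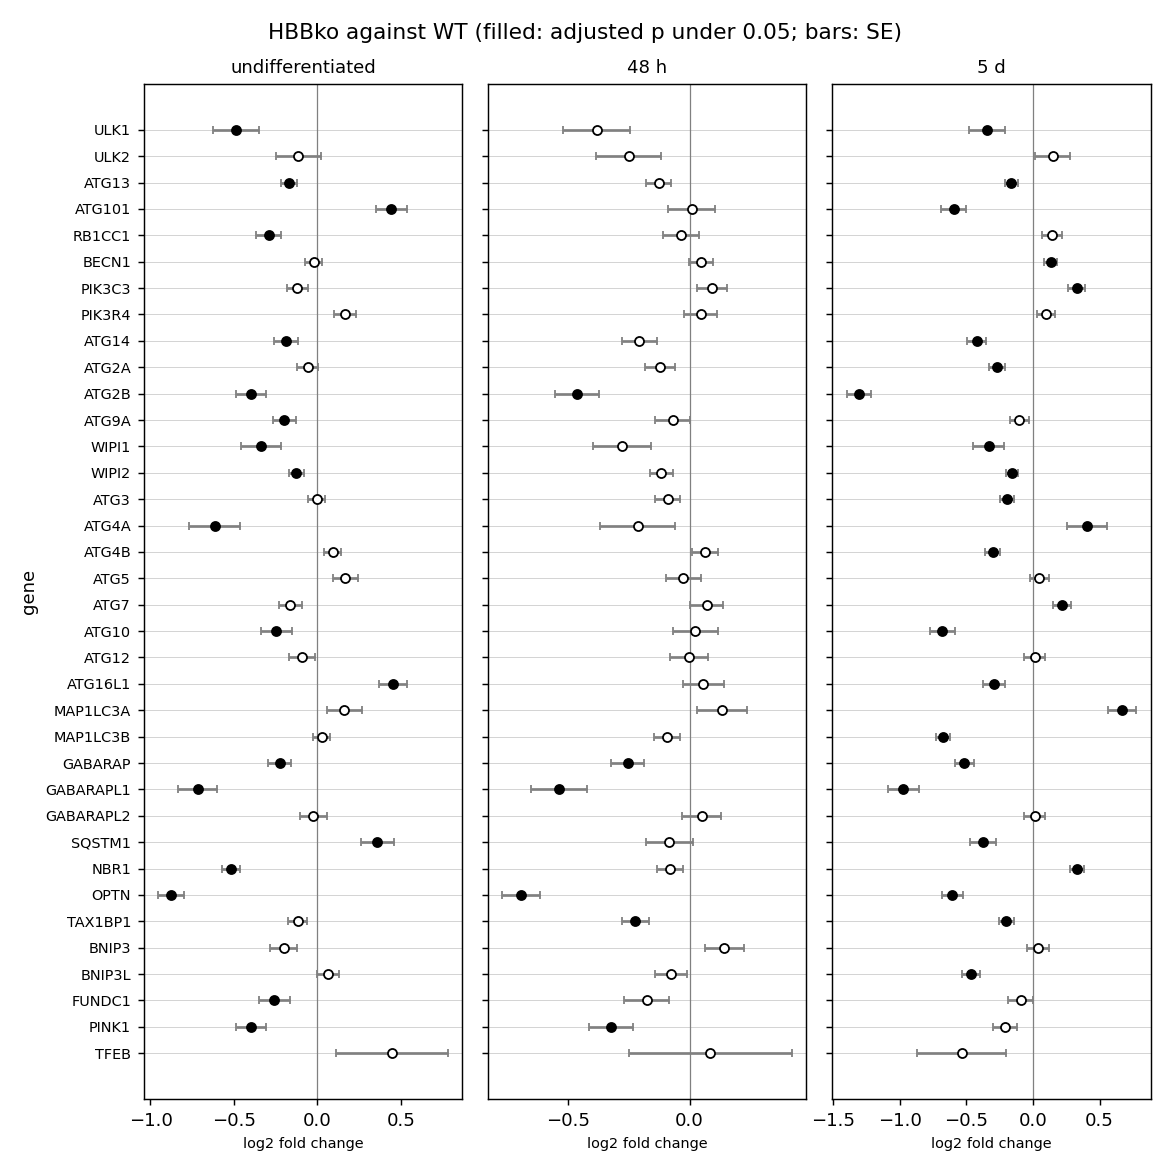
Log2 fold change of HBBko against WT (x axis) for the 36 genes (y axis) at each stage; points are limma estimates with bars of 1 SE, filled where the adjusted p is under 0.05, and the x axes differ in range. OPTN, GABARAPL1, ATG2B and GABARAP are filled and left of 0 in each panel, MAP1LC3A is farthest right at 5 d, and small negative values at 5 d, such as those of ATG13, WIPI2, ATG3 and TAX1BP1, turn positive when libraries are scaled to equal totals.

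In the ULK1 complex, 3 of 5 genes rose from 48 h to 5 d in both lines (ULK1, ATG13 and RB1CC1), also with equal totals. ULK1 is the kinase that starts autophagy. ULK1 in WT libraries had 9.77, 7.96 and 14.5 undifferentiated, 14.5, 14.7 and 19.4 at 48 h and 116, 112 and 115 at 5 d (scaled TPM). ULK1 in HBBko libraries had 7.09, 7.08 and 7.35 undifferentiated, 12.3, 12.0 and 11.9 at 48 h and 93.4, 90.8 and 85.3 at 5 d. The 5 d libraries of each line lay far above its earlier ones, and the HBBko libraries lay below the WT libraries at each stage. ULK1 rose 7.08-fold in WT (log2 2.76 ± 0.14, adjusted p = 4.6e-12) and 7.44-fold in HBBko (2.80 ± 0.14, adjusted p = 4.3e-12) from 48 h to 5 d. The ULK1 difference (HBBko minus WT) gave -0.49 ± 0.14, adjusted p = 0.009 undifferentiated, -0.38 ± 0.14, adjusted p = 0.063 at 48 h and -0.35 ± 0.14, adjusted p = 0.044 at 5 d. The 5 d call was lost when any 1 of the 6 libraries was left out, with equal totals, and with a pseudocount of 0.1, and the undifferentiated call was lost when only those groups were fitted.

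RB1CC1 (FIP200) is the scaffold of the complex. RB1CC1 in WT libraries had 22.5, 26.8 and 22.8 undifferentiated, 20.3, 19.6 and 23.5 at 48 h and 91.6, 79.3 and 87.3 at 5 d (scaled TPM). RB1CC1 in HBBko libraries had 19.3, 19.6 and 19.2 undifferentiated, 21.0, 20.5 and 20.1 at 48 h and 102, 90.3 and 92.8 at 5 d. The lines overlapped at 48 h and 5 d. It rose 4.07-fold in WT and 4.62-fold in HBBko from 48 h to 5 d (log2 1.98 ± 0.08 and 2.15 ± 0.08) and was lower in undifferentiated HBBko (-0.29 ± 0.08, adjusted p = 0.005). ATG13, an adaptor of the kinase, ran from 37.9 to 115 scaled TPM and rose by 1.11 and 1.08 on the log2 scale in the later interval. ULK2, the second kinase, stayed between 0.873 and 2.40 and was called at no stage between the lines. Its replicate 2 was the highest library in each of the 6 groups.

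ATG101, which stabilises ATG13, changed sides between the lines. ATG101 in WT libraries had 23.9, 20.1 and 23.1 undifferentiated, 17.4, 16.3 and 16.0 at 48 h and 19.9, 17.3 and 18.5 at 5 d (scaled TPM). ATG101 in HBBko libraries had 33.0, 28.3 and 31.0 undifferentiated, 15.5, 17.1 and 17.4 at 48 h and 13.9, 10.0 and 12.1 at 5 d. HBBko stood above WT before differentiation, overlapped it at 48 h and stood below it at 5 d. The ATG101 difference (HBBko minus WT) was 0.44 ± 0.10, adjusted p = 0.0014 undifferentiated, 0.01 ± 0.10, adjusted p = 0.97 at 48 h and -0.60 ± 0.10, adjusted p = 6.3e-05 at 5 d, and the first and last calls held under the 4 scalings. The difference between the lines changed by -0.60 ± 0.13, adjusted p = 0.0036 from 48 h to 5 d. It changed by -0.44 ± 0.13, adjusted p = 0.043 over the first 48 h, a call that was lost with equal totals, with a pseudocount of 0.1, or without any 1 of 9 of the 12 libraries (all but WT undifferentiated replicates 1 and 3 and HBBko undifferentiated replicate 2).

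In the phosphatidylinositol 3-kinase complex (4 genes), ATG14 had the largest rise from 48 h to 5 d in both lines. ATG14, which directs the complex to autophagy, rose 3.31-fold in WT and 2.86-fold in HBBko from 48 h to 5 d (log2 1.62 ± 0.07 and 1.40 ± 0.07). At 5 d it had 29.1 ± 2.34 scaled TPM in WT and 21.4 ± 0.969 in HBBko (SD, n = 3), a difference of -0.42 ± 0.07, adjusted p = 0.00011 that was not called with equal totals (-0.10). Its undifferentiated difference (-0.19 ± 0.07, adjusted p = 0.045) was not called with the replicate number as a block (adjusted p = 0.056) or when any 1 library but replicate 1 of WT was left out. BECN1, the core of the complex, fell over the first 48 h in both lines (-0.61 ± 0.05 and -0.54 ± 0.05). It rose by 0.31 and 0.40 afterwards, and with equal totals that later change is -0.32 and -0.04. PIK3C3, the lipid kinase itself, was higher in HBBko at 5 d (0.33 ± 0.06, adjusted p = 0.00037). PIK3R4, its regulatory subunit, was called between the lines at no stage, and rose by 0.39 and 0.27 over the first 48 h and fell by 0.53 and 0.48 afterwards.

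All 5 genes of lipid transfer and membrane marking (ATG2A, ATG2B, ATG9A, WIPI1 and WIPI2) rose in both lines in both intervals as deposited, and with equal totals WIPI1 stood at -0.05 and 0.09 in the later interval while ATG2A was not called in the earlier one. ATG2B, a lipid transfer protein, showed the largest difference between the lines of all 36 genes. ATG2B (ENSG00000066739.11, chr14:96279202-96363870, minus strand, GENCODE v29) had 6.70, 8.45 and 6.67 undifferentiated, 11.1, 13.3 and 13.4 at 48 h and 68.5, 57.0 and 62.2 at 5 d in WT (scaled TPM). ATG2B in HBBko libraries had 5.27, 5.54 and 4.94 undifferentiated, 9.46, 8.58 and 8.50 at 48 h and 23.5, 25.4 and 24.9 at 5 d. HBBko stood below WT without overlap at each stage, and the gap was widest at 5 d. The ATG2B difference (HBBko minus WT) was -0.40 ± 0.09, adjusted p = 0.0022 undifferentiated, -0.46 ± 0.09, adjusted p = 0.0022 at 48 h and -1.31 ± 0.09, adjusted p = 7.4e-09 at 5 d, where WT was 2.54-fold higher. From 48 h to 5 d it rose 4.97-fold in WT and 2.78-fold in HBBko, and the difference between these rises was called (-0.85 ± 0.13, adjusted p = 0.00017).

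WIPI1, which reads the lipid mark, had the largest early rise of the members. WIPI1 in WT libraries had 13.8, 15.0 and 19.2 undifferentiated, 33.9, 36.1 and 45.6 at 48 h and 53.5, 63.4 and 57.4 at 5 d (scaled TPM). WIPI1 in HBBko libraries had 11.4, 12.8 and 13.0 undifferentiated, 29.9, 31.5 and 32.7 at 48 h and 39.5, 49.7 and 48.9 at 5 d. The 48 h libraries stood clear of the undifferentiated ones in both lines, and HBBko stood below WT at each stage. Over the first 48 h it rose 2.41-fold in WT (1.22 ± 0.12, adjusted p = 9.8e-08) and 2.54-fold in HBBko (1.28 ± 0.12, adjusted p = 5.4e-08). The WIPI1 difference (HBBko minus WT) was -0.34 ± 0.12, adjusted p = 0.031 undifferentiated, -0.28 ± 0.12, adjusted p = 0.12 at 48 h and -0.33 ± 0.12, adjusted p = 0.027 at 5 d. The undifferentiated call was lost when replicate 3 of WT or 1 of HBBko was left out, and the 5 d call with equal totals or when replicate 2 or 3 of WT or 1 of HBBko was left out. ATG9A, the scramblase carried on vesicles, rose from a mean of 55.2 to 152 scaled TPM in WT and from 52.5 to 141 in HBBko (log2 1.44 ± 0.07 and 1.41 ± 0.07). ATG2A and WIPI2 rose by 0.93 and 0.80 in WT over the same interval, and by 0.78 and 0.76 in HBBko.

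The 8 conjugation genes moved in different directions. ATG4A and ATG4B, the proteases that process LC3 and GABARAP, rose in both lines from 48 h to 5 d (ATG4B not with equal totals), and ATG3 fell in both. In WT ATG16L1 rose (not with equal totals) and ATG7 fell (not with median-of-ratios scaling), and in HBBko ATG10 fell. ATG5 and ATG12, which form a conjugate, were called in neither line in that interval as deposited, and lower in both with equal totals. ATG4A in WT libraries had 13.8, 18.9 and 26.1 undifferentiated, 20.0, 20.3 and 27.3 at 48 h and 67.2, 59.9 and 66.7 at 5 d (scaled TPM). ATG4A in HBBko libraries had 11.5, 11.3 and 13.4 undifferentiated, 19.0, 18.9 and 19.4 at 48 h and 83.4, 82.8 and 91.5 at 5 d. HBBko stood below WT before differentiation and above it at 5 d. It rose 2.87-fold in WT and 4.49-fold in HBBko (log2 1.49 ± 0.15 and 2.11 ± 0.15). The ATG4A difference (HBBko minus WT) was -0.62 ± 0.15, adjusted p = 0.0041 undifferentiated and 0.41 ± 0.15, adjusted p = 0.036 at 5 d. The 5 d call was lost without any 1 of its 6 libraries, and the undifferentiated one when only those groups were fitted.

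ATG10, an E2-like enzyme for ATG12, was a low gene that fell in HBBko from 48 h to 5 d (-0.53 ± 0.09, adjusted p = 5.9e-05) and was not called in WT (0.18 ± 0.09, adjusted p = 0.094). ATG10 in WT libraries had 4.57, 4.39 and 4.53 undifferentiated, 3.59, 3.51 and 4.24 at 48 h and 4.47, 4.62 and 4.09 at 5 d (scaled TPM). ATG10 in HBBko libraries had 4.09, 3.41 and 3.43 undifferentiated, 3.83, 3.61 and 4.12 at 48 h and 2.28, 2.85 and 2.01 at 5 d. The HBBko 5 d libraries lay below all others. The ATG10 difference (HBBko minus WT) was -0.68 ± 0.09, adjusted p = 1.5e-05 at 5 d, and the change from 48 h to 5 d differed between the lines by -0.70 ± 0.13, adjusted p = 0.00098, under each of the 4 scalings. Its undifferentiated call (-0.25 ± 0.09, adjusted p = 0.043) was lost with the replicate number as a block (0.054), with each other scaling, and without any 1 library but replicate 1 of HBBko. ATG10 shares its locus with RPS23 on the opposite strand, which reached 4583 scaled TPM. The kit named in the labels is not described as keeping strand, so reads from any exons the 2 genes share could not be told apart here. The same limit may hold for other overlaps, among them those where ATG2B overlaps GSKIP, MAP1LC3B overlaps FBXO31, SQSTM1 overlaps MGAT4B, TAX1BP1 overlaps JAZF1 and BECN1 overlaps PSME3. These overlaps are of whole gene spans with introns, and shared exons were not looked for.

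ATG16L1, which places the conjugation on the membrane, was higher in undifferentiated HBBko (0.45 ± 0.08, adjusted p = 0.00039) and lower at 5 d (-0.29 ± 0.08, adjusted p = 0.0076, but 0.02 with equal totals). ATG7, the E1-like enzyme, was higher in HBBko at 5 d (0.22 ± 0.07, adjusted p = 0.014). Undifferentiated it was -0.16 ± 0.07, adjusted p = 0.066, and it was just called with the replicate number as a block. The 5 d call was lost when replicate 1 of WT or 3 of HBBko was left out. ATG4B was lower in HBBko at 5 d (-0.30 ± 0.05, adjusted p = 0.00015), and ATG3, the E2-like enzyme for LC3, was too (-0.19 ± 0.05, adjusted p = 0.0044). With equal totals these became 0.03 and 0.14. Over the 18 libraries ATG4B ran from 57.7 to 119.8 scaled TPM, ATG3 from 49.2 to 82.4, ATG16L1 from 8.56 to 15.3, ATG12 from 22.1 to 32.9, ATG5 from 17.2 to 27.4 and ATG7 from 11.3 to 18.1. ATG5 and ATG12 fell over the first 48 h in both lines (-0.32 and -0.51, and -0.27 and -0.19), ATG12 not with median-of-ratios scaling, and neither was called between the lines at any stage.

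All 5 LC3 and GABARAP genes rose in both lines from 48 h to 5 d, although MAP1LC3A in WT was not called with equal totals (0.14). In the first interval none of the 5 was called in WT and GABARAP was called lower in HBBko (-0.18 ± 0.07, adjusted p = 0.033), a call lost with median-of-ratios scaling and without HBBko undifferentiated replicate 1 or 3 or any 1 of the HBBko 48 h libraries. GABARAPL1 (ENSG00000139112.10, chr12:10212458-10223130, plus strand) had the largest rise of the 36 genes. GABARAPL1 in WT libraries had 7.09, 5.66 and 5.56 undifferentiated, 5.16, 6.58 and 6.38 at 48 h and 89.0, 86.8 and 92.7 at 5 d (scaled TPM). GABARAPL1 in HBBko libraries had 2.52, 3.49 and 4.04 undifferentiated, 3.96, 4.11 and 3.44 at 48 h and 46.7, 43.4 and 45.1 at 5 d. Only the 5 d libraries were high, and HBBko stood below WT without overlap at each stage. The rise from 48 h was 14.8-fold in WT (3.69 ± 0.12, adjusted p = 2e-14) and 11.7-fold in HBBko (3.25 ± 0.12, adjusted p = 8.7e-14). The GABARAPL1 difference (HBBko minus WT) was -0.72 ± 0.12, adjusted p = 0.00012 undifferentiated, -0.54 ± 0.12, adjusted p = 0.0038 at 48 h and -0.97 ± 0.12, adjusted p = 2.8e-06 at 5 d. The difference between the rises was -0.44 ± 0.16, adjusted p = 0.062 and was not called.

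MAP1LC3B, the LC3 most used as a marker of autophagosomes, differed between the lines by 0.03 ± 0.05, adjusted p = 0.73 undifferentiated and -0.09 ± 0.05, adjusted p = 0.26 at 48 h, neither called, and more at 5 d. MAP1LC3B in WT libraries had 26.5, 27.0 and 29.7 undifferentiated, 27.3, 28.0 and 27.3 at 48 h and 106, 93.6 and 101 at 5 d (scaled TPM). MAP1LC3B in HBBko libraries had 28.2, 28.7 and 27.7 undifferentiated, 25.9, 27.1 and 24.5 at 48 h and 63.0, 62.3 and 61.8 at 5 d. The 5 d libraries of HBBko lay below those of WT without overlap. It rose 3.64-fold in WT and 2.41-fold in HBBko, and the difference between the rises was called (-0.58 ± 0.08, adjusted p = 3.7e-05). The MAP1LC3B difference (HBBko minus WT) was -0.67 ± 0.05, adjusted p = 2.9e-08 at 5 d, and -0.34 with equal totals. The near-identical MAP1LC3B2 stayed at or under 0.811 scaled TPM.

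MAP1LC3A, the related LC3 gene, went the other way at 5 d. MAP1LC3A in WT libraries had 11.3, 8.75 and 13.2 undifferentiated, 8.60, 8.95 and 10.6 at 48 h and 16.1, 17.4 and 15.5 at 5 d (scaled TPM). MAP1LC3A in HBBko libraries had 12.3, 11.7 and 13.1 undifferentiated, 10.4, 10.1 and 10.6 at 48 h and 28.1, 25.9 and 25.9 at 5 d. The lines overlapped until 48 h, and HBBko stood above WT at 5 d. The MAP1LC3A difference (HBBko minus WT) was 0.67 ± 0.10, adjusted p = 4.8e-05 at 5 d, the largest difference above 0 between the lines among the members. The rises from 48 h to 5 d (0.74 ± 0.10 in WT and 1.28 ± 0.10 in HBBko) differed by 0.54 ± 0.15, adjusted p = 0.014.

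GABARAP in WT libraries had 249.6, 243 and 302 undifferentiated, 225, 229 and 261 at 48 h and 621, 625 and 669.6 at 5 d (scaled TPM). GABARAP in HBBko libraries had 223, 221 and 233 undifferentiated, 200.4, 196 and 201 at 48 h and 442, 442 and 455 at 5 d. HBBko stood below WT without overlap at each stage. The GABARAP difference (HBBko minus WT) was -0.23 ± 0.07, adjusted p = 0.015 undifferentiated, -0.25 ± 0.07, adjusted p = 0.017 at 48 h and -0.52 ± 0.07, adjusted p = 1.1e-05 at 5 d. The 48 h call was lost with equal totals (-0.11) or when replicate 3 of WT or 2 of HBBko was left out, and the undifferentiated call without WT replicate 3. GABARAP rose from 48 h to 5 d by 1.42 ± 0.07 and 1.16 ± 0.07. GABARAPL2, the fifth of the family, had 50.6, 51.1 and 64.5 undifferentiated, 56.2, 58.0 and 63.1 at 48 h and 119, 109 and 122 at 5 d in WT. GABARAPL2 in HBBko libraries had 50.5, 54.1 and 58.0 undifferentiated, 60.8, 60.3 and 62.4 at 48 h and 115, 112 and 126 at 5 d. The lines overlapped at each stage, with differences of -0.02 ± 0.08, 0.05 ± 0.08 and 0.01 ± 0.08, none of them called.

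**Figure D4:**
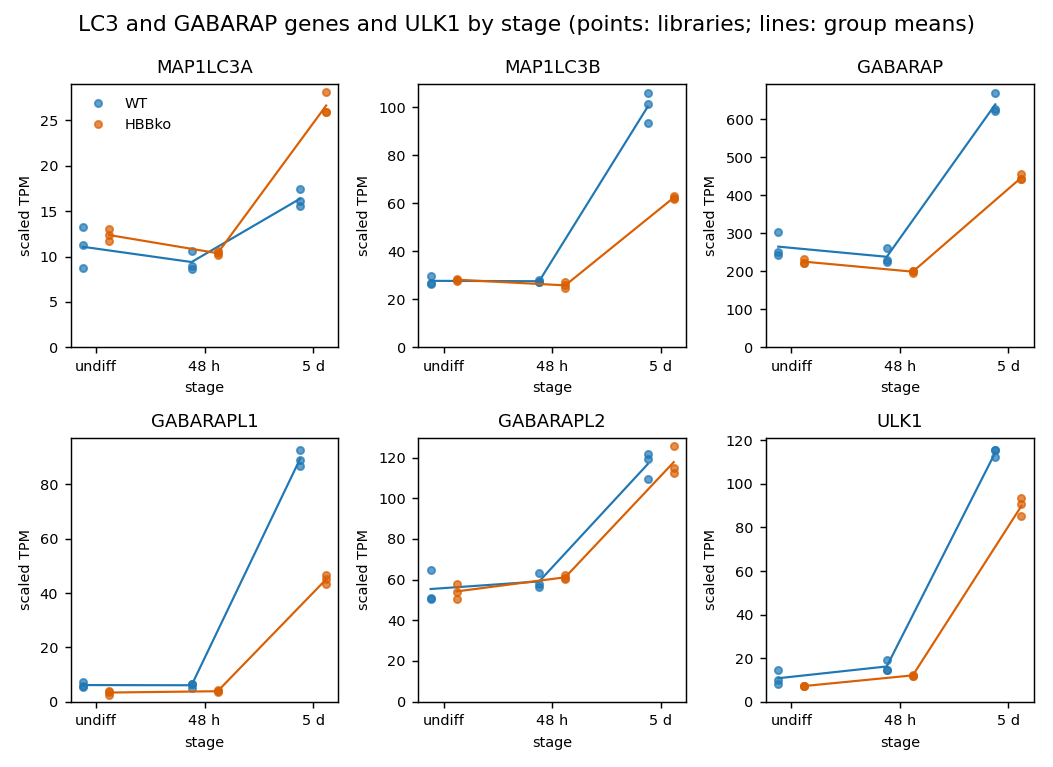
Scaled TPM (y axes, from 0) of the 5 LC3 and GABARAP genes and ULK1 by stage (x axes); points are libraries (3 per group), lines join group means, WT is blue and HBBko orange. At 5 d the HBBko points lie below the WT points for MAP1LC3B, GABARAP, GABARAPL1 and ULK1 (the ULK1 difference is not called with equal totals), above them for MAP1LC3A, and among them for GABARAPL2.

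The 4 cargo receptors each differed between the lines at 1 stage or more. OPTN (optineurin), which binds ubiquitin on mitochondria and other cargo, was lower in HBBko throughout. OPTN (ENSG00000123240.16, chr10:13099449-13138308, plus strand) had 34.8, 34.6 and 42.3 undifferentiated, 58.6, 60.0 and 71.8 at 48 h and 168, 179 and 166 at 5 d in WT (scaled TPM). OPTN in HBBko libraries had 19.3, 20.3 and 19.7 undifferentiated, 37.1, 39.1 and 40.1 at 48 h and 111, 117 and 108 at 5 d. No HBBko library reached a WT library of its stage. The OPTN difference (HBBko minus WT) was -0.88 ± 0.08, adjusted p = 3.7e-07 undifferentiated, -0.69 ± 0.08, adjusted p = 1.1e-05 at 48 h and -0.61 ± 0.08, adjusted p = 6e-06 at 5 d, and with equal totals -0.84, -0.55 and -0.27, each called. It rose in each interval in each line (0.75 ± 0.08 and 0.94 ± 0.08, then 1.42 ± 0.08 and 1.51 ± 0.08). Neither interaction was called (adjusted p = 0.28 and 0.62).

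NBR1, a receptor for ubiquitinated proteins, crossed over between the lines. NBR1 in WT libraries had 33.9, 39.4 and 35.4 undifferentiated, 47.0, 49.3 and 50.3 at 48 h and 53.9, 53.1 and 50.3 at 5 d (scaled TPM). NBR1 in HBBko libraries had 24.3, 25.3 and 25.4 undifferentiated, 44.7, 47.3 and 46.3 at 48 h and 64.7, 68.5 and 65.3 at 5 d. HBBko stood below WT before differentiation, overlapped it at 48 h and stood above it at 5 d. The NBR1 difference (HBBko minus WT) was -0.52 ± 0.05, adjusted p = 2e-06 undifferentiated, -0.08 ± 0.05, adjusted p = 0.32 at 48 h and 0.33 ± 0.05, adjusted p = 7.1e-05 at 5 d. The difference between the lines moved by 0.43 ± 0.08, adjusted p = 0.0022 over the first 48 h and by 0.41 ± 0.08, adjusted p = 0.00077 afterwards, under each of the 4 scalings. In WT the rise came in the first 48 h (0.42 ± 0.05), and the later change of 0.10 ± 0.05, adjusted p = 0.097 became -0.53 with equal totals.

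SQSTM1 (p62), the receptor that itself collects in bodies when autophagy stalls, crossed in the direction opposite to NBR1. SQSTM1 in WT libraries had 219, 153 and 209 undifferentiated, 154, 159.9 and 173 at 48 h and 461, 481 and 524 at 5 d (scaled TPM). SQSTM1 in HBBko libraries had 255, 229.8 and 254 undifferentiated, 147, 154 and 158 at 48 h and 392, 380.1 and 357 at 5 d. HBBko stood above WT before differentiation, overlapped it at 48 h and stood below it at 5 d. The SQSTM1 difference (HBBko minus WT) was 0.36 ± 0.10, adjusted p = 0.0069 undifferentiated, -0.08 ± 0.10, adjusted p = 0.61 at 48 h and -0.37 ± 0.10, adjusted p = 0.004 at 5 d. The 5 d call was lost with equal totals (-0.04), and the undifferentiated call when only those groups were fitted. It rose 3.01-fold in WT and 2.46-fold in HBBko from 48 h to 5 d. Over the first 48 h the difference moved by -0.44 ± 0.14, adjusted p = 0.043, a call lost with equal totals and without any 1 of 8 of the 12 libraries (each 48 h library and HBBko undifferentiated replicates 1 and 3). The authors' deposited comparisons list SQSTM1 at 0.35 with a q-value of 0.15 undifferentiated, and at -0.38 with a q-value of 7e-07 at 5 d.

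TAX1BP1, which works beside NBR1 and SQSTM1, rose by 1.06 ± 0.05 and 1.09 ± 0.05 from 48 h to 5 d. TAX1BP1 in WT libraries had 43.0, 46.2 and 39.5 undifferentiated, 42.6, 44.2 and 46.6 at 48 h and 94.2, 91.2 and 96.8 at 5 d (scaled TPM). TAX1BP1 in HBBko libraries had 38.5, 41.1 and 38.5 undifferentiated, 37.1, 38.9 and 37.9 at 48 h and 79.9, 81.1 and 84.2 at 5 d. The lines overlapped before differentiation and not afterwards. The TAX1BP1 difference (HBBko minus WT) was -0.22 ± 0.05, adjusted p = 0.0086 at 48 h and -0.20 ± 0.05, adjusted p = 0.0053 at 5 d, and with equal totals -0.08 and 0.13, so the direction at 5 d depends on the scaling. The 48 h call was lost without WT replicate 3.

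The mitophagy genes split in both lines. PINK1 and BNIP3L fell over the first 48 h and rose to 5 d, and BNIP3 rose and then fell, while FUNDC1 was called only in the later interval, where it fell. Both intervals use the 48 h libraries. With equal totals the later change of BNIP3L was 0.15 in WT and -0.04 in HBBko, neither called. BNIP3L in WT libraries had 288, 339.9 and 290.0 undifferentiated, 218, 220.3 and 213 at 48 h and 389, 352 and 397 at 5 d (scaled TPM). BNIP3L in HBBko libraries had 309.8, 329 and 316 undifferentiated, 206, 209.6 and 202 at 48 h and 267, 258 and 299 at 5 d. The lines overlapped before differentiation, and HBBko stood below WT at 48 h and 5 d. At 5 d HBBko against WT was -0.47 ± 0.07, adjusted p = 1.8e-05 (-0.13 with equal totals, not called), after 0.06 ± 0.07, adjusted p = 0.47 and -0.08 ± 0.07, adjusted p = 0.46. The later rises differed by -0.39 ± 0.09, adjusted p = 0.0059, HBBko minus WT, which was not called with equal totals (-0.19).

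BNIP3, the hypoxia-responsive paralog of BNIP3L, had its highest means at 48 h, although its early rise in WT was not called with equal totals. BNIP3 in WT libraries had 14.8, 15.9 and 18.2 undifferentiated, 21.0, 23.1 and 18.6 at 48 h and 9.34, 8.65 and 9.38 at 5 d (scaled TPM). BNIP3 in HBBko libraries had 13.7, 14.0 and 14.3 undifferentiated, 22.6, 22.8 and 23.9 at 48 h and 9.30, 8.76 and 10.2 at 5 d. The 5 d libraries were the lowest in both lines. HBBko stood below WT before differentiation, and the lines overlapped at 48 h and 5 d. From 48 h to 5 d it fell by 1.11 in WT and by 1.21 in HBBko on the log2 scale (adjusted p = 6.7e-10 and 2e-10). It was called between the lines at no stage (-0.20 ± 0.08, 0.14 ± 0.08 and 0.04 ± 0.08), although the undifferentiated difference was called without WT replicate 1. FUNDC1, a receptor in the outer mitochondrial membrane, had 5.92, 7.02 and 8.41 undifferentiated, 6.62, 7.61 and 6.68 at 48 h and 3.96, 4.02 and 4.30 at 5 d in WT. FUNDC1 in HBBko libraries had 5.64, 5.48 and 6.09 undifferentiated, 5.90, 6.32 and 5.92 at 48 h and 3.54, 3.98 and 3.81 at 5 d. It was low throughout and lowest at 5 d, with a later change of -0.64 ± 0.09, adjusted p = 5e-06 in WT and -0.56 ± 0.09, adjusted p = 2.5e-05 in HBBko. The lower call in undifferentiated HBBko (-0.26 ± 0.09, adjusted p = 0.032), where the groups overlapped, was lost when replicate 2 or 3 of WT or 1 or 2 of HBBko was left out.

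PINK1 is the kinase that marks damaged mitochondria for removal. PINK1 in WT libraries had 26.9, 23.1 and 32.1 undifferentiated, 16.6, 16.2 and 18.9 at 48 h and 59.0, 51.5 and 60.1 at 5 d (scaled TPM). PINK1 in HBBko libraries had 20.0, 20.0 and 20.9 undifferentiated, 13.3, 13.5 and 13.9 at 48 h and 50.7, 47.1 and 48.9 at 5 d. HBBko stood below WT without overlap at each stage. The PINK1 difference (HBBko minus WT) was -0.40 ± 0.09, adjusted p = 0.002 undifferentiated, -0.32 ± 0.09, adjusted p = 0.02 at 48 h and -0.21 ± 0.09, adjusted p = 0.06 at 5 d. At 5 d it was called with the replicate number as a block (0.02), and the 48 h call was lost with equal totals (adjusted p = 0.054) or when replicate 3 of WT or replicate 1 or 2 of HBBko was left out. PINK1 rose 3.30-fold in WT and 3.61-fold in HBBko from 48 h to 5 d.

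Transcripts encoded by the mitochondria themselves moved beside these genes. They took 9.75% to 11.4% of the library in undifferentiated WT, 5.04% to 5.72% at 48 h and 1.34% to 1.46% at 5 d. In HBBko the shares were 10.1% to 10.4%, 7.18% to 7.79% and 2.29% to 2.97%. The lines overlapped before differentiation and not at 48 h or 5 d, where HBBko was higher. A link between this share and the mitophagy genes was not tested, and the share is also set by the globin share given above.

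**Figure D5:**
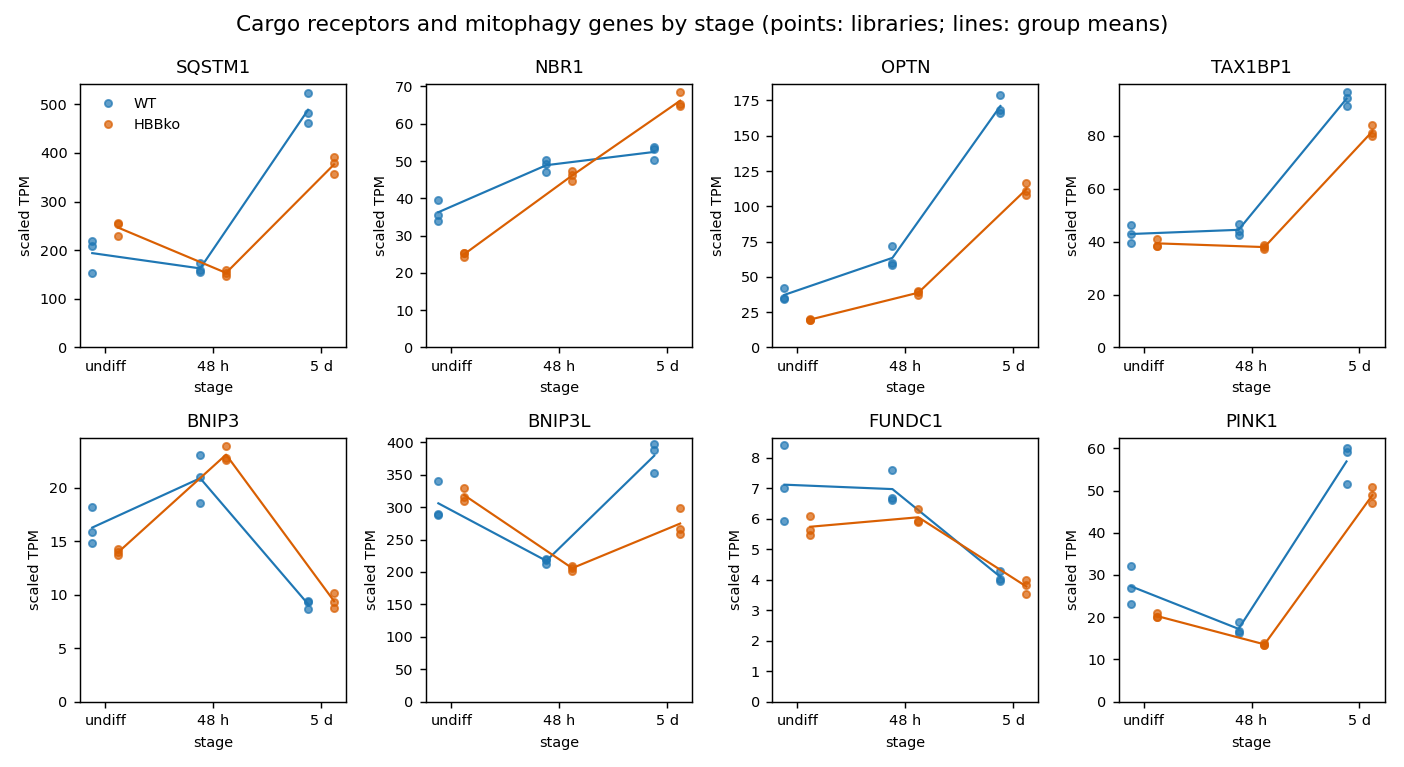
Scaled TPM (y axes, from 0) of the 4 cargo receptors and the 4 mitophagy genes by stage (x axes); points are libraries (3 per group), lines join group means, WT is blue and HBBko orange. OPTN is lower in HBBko at each stage, NBR1 and SQSTM1 change sides in opposite directions, and at 5 d BNIP3L, TAX1BP1 and SQSTM1 of HBBko lie below WT as deposited but are not called lower with equal totals.

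TFEB, the lysosomal regulator, was the lowest of the 36 genes in each group. TFEB in WT libraries had 0.418, 2.47 and 0.322 undifferentiated, 0.174, 0.148 and 0.432 at 48 h and 0.256, 1.45 and 0.168 at 5 d (scaled TPM). TFEB in HBBko libraries had 0.907, 1.39 and 2.60 undifferentiated, 0.808, 0.200 and 0.0613 at 48 h and 0.0453, 0.0757 and 0.0486 at 5 d. Libraries of 1 group often differed by several fold, and replicate 2 was the high library in WT before differentiation and at 5 d. It was called between the lines at no stage (adjusted p = 0.3, 0.9 and 0.2) and fell over the first 48 h in HBBko (-0.94 ± 0.34, adjusted p = 0.02), a call lost without HBBko undifferentiated replicate 3 or 48 h replicate 2 or 3. TFEB reached 1 scaled TPM in replicate 2 of WT undifferentiated and at 5 d, and in undifferentiated HBBko replicates 2 and 3. Without these HBBko libraries, the high side of that fall, it would not have passed the filter on low values. The call is therefore not independent of the filter, and no conclusion is drawn from it. The related TFE3, also a regulator of lysosome genes, had 26.2 scaled TPM in WT at 5 d and 15.3 in HBBko (-0.74, adjusted p = 2.4e-07). FOXO3 rose from 48 h to 5 d by 2.57 in WT and 2.65 in HBBko, and was lower in HBBko by 0.63, 0.37 and 0.29 on the log2 scale at the successive stages (adjusted p = 8.2e-06, 0.0027 and 0.0044), the last of them not called with equal totals (0.05).

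ATF4, named in the study's title, was lower in HBBko undifferentiated (-0.97, adjusted p = 9.7e-07) and at 48 h (-0.56, adjusted p = 0.00061). At 5 d ATF4 had 732 scaled TPM in WT and 731 in HBBko (adjusted p = 0.98), but 0.33 on the log2 scale, called, with equal totals. GATA1 was lower in undifferentiated HBBko (-0.30, adjusted p = 0.0099), where the groups overlapped. It was not called later (0.02 and 0.07), but with equal totals it was called higher at 5 d (0.41). DDIT3 was lower in HBBko at each stage (-1.13, -0.63 and -1.33). Of the 12 members that work in other cells has described as depending on ATF4 or CHOP, 3 were lower and 2 higher in undifferentiated HBBko, 1 was lower (GABARAP) and 0 higher at 48 h, and 6 were lower and 3 higher at 5 d, where equal totals gave 3 lower and 7 higher. Over all tested genes 43.3%, 18.7% and 51.3% were called at the successive stages. Their medians were -0.02, -0.01 and -0.09, against -0.01, 0.02 and 0.02 over all tested genes. ATF4 protein, which is controlled largely in translation, was not measured.

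Genes around the 36 were read from 4 further lists, each gene named here being called in the same direction under all 4 scalings. Of 17 tested receptors and mitophagy factors outside the 36, 9 rose and 5 fell in WT from 48 h to 5 d, and 10 rose and 4 fell in HBBko (medians 0.15 and 0.26, against -0.20 over all tested genes). Over all tested genes 80.2% were called in WT (30.8% higher and 49.5% lower) and 79.7% in HBBko (30.2% higher and 49.5% lower), and these shares also stand beside the other 3 lists. Equal totals gave 6 and 10 in WT and 5 and 8 in HBBko. NCOA4, the receptor that delivers ferritin to the lysosome, rose in both (1.79 and 1.64), as did CALCOCO1 (1.86 and 2.39) and SEC62 (1.68 and 1.47), both receptors for the endoplasmic reticulum. Between the lines 6 were lower and 1 higher undifferentiated, 5 lower and 2 higher at 48 h, and 8 lower and 4 higher at 5 d (medians -0.07, -0.02 and -0.12), with 3 lower and 8 higher at 5 d with equal totals. For this and the other 3 lists the shares over all tested genes are 22.3% lower and 20.9% higher, 9.21% and 9.52%, and 24.8% and 26.5% at the successive stages. CALCOCO2 (NDP52), the receptor that works with OPTN, was lower in HBBko at each stage (-1.04, -0.49 and -0.67, adjusted p = 8.9e-08, 0.00046 and 3e-06). TBK1, the kinase that activates OPTN, was higher in HBBko at 48 h (0.32) and 5 d (1.00). RTN3, a reticulum receptor, was lower at 5 d (-1.24).

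Of 15 tested further autophagosome genes, 8 rose and 5 fell in WT and 8 rose and 4 fell in HBBko from 48 h to 5 d (medians 0.19 and 0.16), and with equal totals 5 and 10 in WT and 4 and 9 in HBBko. ATG4D, a protease for LC3 proteins, rose (1.74 and 2.03), and ATG9B, the second ATG9 gene, fell (-2.20 and -2.14). Between the lines 6 were lower and 2 higher undifferentiated, 2 and 0 at 48 h, and 1 and 4 at 5 d (medians -0.08, -0.03 and 0.05), where equal totals gave 1 lower and 13 higher. RUBCN, an inhibitor of autophagy, was higher in HBBko undifferentiated (0.52) and at 5 d (0.42). ATG16L2, the paralog of ATG16L1, was lower at both (-0.43 and -0.67).

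The 34 fusion and lysosome genes split about evenly from 48 h to 5 d, with 15 up and 16 down in WT and 13 up and 14 down in HBBko (medians 0.07 and 0.01), and with equal totals 6 and 26 in WT and 8 and 23 in HBBko. Over the first 48 h 20 fell and 7 rose in WT and 17 fell and 9 rose in HBBko (medians -0.29 and -0.14, against -0.10 and -0.09 over all tested genes, where 41.4% fell and 23.5% rose in WT and 40.1% fell and 25.1% rose in HBBko). CTSL, a lysosomal protease, rose to 5 d (1.38 and 1.69), and NPC2, a lysosomal cholesterol carrier, fell over the first 48 h (-1.94 and -1.84). Between the lines 12 were lower and 5 higher undifferentiated, 3 and 2 at 48 h, and 7 and 9 at 5 d (medians -0.04, -0.01 and 0.03), where equal totals gave 2 lower and 25 higher. At 5 d PSAP, the precursor of the saposins, was lower (-0.51), and VPS18, a tethering subunit, was higher (0.44). VPS18 was low there, at 2.03 scaled TPM in HBBko and 1.23 in WT. As deposited it was also called higher in HBBko undifferentiated (0.38) and at 48 h (0.29). Of 19 tested genes of nutrient sensing, 10 rose and 5 fell from 48 h to 5 d in each line (medians 0.14 and 0.19), and with equal totals 5 and 12 in WT and 6 and 11 in HBBko. FLCN, a regulator of TFEB and TFE3, rose (1.68 and 1.54). Between the lines 3 were lower and 1 higher undifferentiated, 2 and 0 at 48 h, and 6 and 3 at 5 d (medians -0.01, -0.05 and -0.12), where equal totals gave 2 lower and 9 higher.

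The authors' deposited tables, 1 per stage, compare the lines with values of their own. The authors' deposited tables list a q-value under 0.05 for 8 of 36 members undifferentiated (25% of all listed genes), 14 of 36 at 48 h (29.3%) and 24 of 35 at 5 d (43.3%). Of these, the authors' deposited tables give 6 as lower and 2 higher, then 14 and 0, then 20 and 4. Of the members called here, 8 of 19, 6 of 6 and 23 of 25 also passed in the authors' deposited tables, each with the same sign. The sets are not independent, since both were made from the same libraries.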

How the data were processed

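RNA-seq libraries were made from DNase-treated RNA with an Illumina TruSeq RNA kit, per the labels' protocols. The authors' deposited expression values are a signal in scaled TPM, made with kallisto and sleuth on hg38 per the submitters' processing notes; versions, annotation and the scaling step are not given in the sources used here. The authors' deposited comparison tables give log2 fold changes, standard errors, p-values and q-values in the sleuth layout, per the file headers. The columns' thal and wen were read as HBBko and WT from the names alone.

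Values were fitted as log2(scaled TPM + 1) with limma 3.58.1 in R 4.3.3 (group means over all 18 libraries, 12 residual degrees of freedom, trended empirical Bayes), for genes that reached 1 scaled TPM in 3 or more libraries. The comparisons were HBBko against WT at 3 stages, 4 intervals within a line and 2 interactions, and p-values were adjusted by Benjamini-Hochberg over 12005 genes, with calls at an adjusted p under 0.05. On simulated data for HBBko against WT at 5 d (12005 genes, 200 of them changed), 78% of changes of 0.5 and 97% of changes of 1 on the log2 scale were recovered, with 5 false calls. Its noise was normal and independent between libraries and genes, with no scaling difference, whereas 51.3% of genes were called in the real comparison. The simulation therefore cannot show errors that come from scaling or from libraries that deviate together. Read depth is unknown, so the 3 libraries per group set the precision. Alternatives were pseudocounts of 0.1 and 5, no filter, equal library totals with or without globins, median-of-ratios scaling, a replicate block, a fit of only the groups compared, and leaving out each library. The scalings of the other gene lists were added after seeing the data. Figures were drawn with matplotlib 3.10.9.

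Members and lists were chosen with earlier results of these data known. Named genes were the receptors, the LC3 and GABARAP genes, TFEB and the members with the largest changes. Same-numbered libraries deviated together (every pair's correlation over 0.1) in HBBko against WT undifferentiated (0.12 to 0.17) and at 5 d (0.13 to 0.18) and in WT 48 h against undifferentiated, and not in the other 4 comparisons. Promoter windows came from RefSeq.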

Additional observations from a re-analysis of the deposited data

Results flagged for a closer look

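In 10 members the difference between HBBko and WT itself changed from 48 h to 5 d (adjusted p under 0.05 for the interaction in limma, 24.6% of all tested genes), and in 4 it changed over the first 48 h (13.2%). Each value is the HBBko minus WT difference at the later stage minus that at the earlier one, on the log2 scale with its SE. From 48 h to 5 d the change was -0.85 ± 0.13, adjusted p = 0.00017 for ATG2B, -0.70 ± 0.13, adjusted p = 0.00098 for ATG10, -0.60 ± 0.13, adjusted p = 0.0036 for ATG101, -0.58 ± 0.08, adjusted p = 3.7e-05 for MAP1LC3B, -0.39 ± 0.09, adjusted p = 0.0059 for BNIP3L, -0.37 ± 0.08, adjusted p = 0.0019 for ATG4B and -0.35 ± 0.12, adjusted p = 0.04 for ATG16L1. It was 0.62 ± 0.22, adjusted p = 0.047 for ATG4A, 0.54 ± 0.15, adjusted p = 0.014 for MAP1LC3A and 0.41 ± 0.08, adjusted p = 0.00077 for NBR1. Over the first 48 h it was -0.44 ± 0.14, adjusted p = 0.043 for SQSTM1, -0.44 ± 0.13, adjusted p = 0.043 for ATG101, -0.39 ± 0.12, adjusted p = 0.037 for ATG16L1 and 0.43 ± 0.08, adjusted p = 0.0022 for NBR1. Both changes use the 48 h libraries. Under all 4 scalings the later change was called in ATG2B, ATG10, ATG101, MAP1LC3B, MAP1LC3A and NBR1, and the earlier one in NBR1 alone. With equal totals the later changes of BNIP3L, ATG4B and ATG16L1 and the earlier ones of SQSTM1, ATG101 and ATG16L1 were not called. Leaving out single libraries ended the later call of ATG4A for 10 of 12 libraries (all but replicates 1 and 2 of WT at 48 h) and of ATG16L1 for 11 of 12 (all but replicate 1 of HBBko at 5 d), and the earlier call of ATG16L1 for 9 of 12 (all but replicates 1 and 3 of undifferentiated WT and replicate 3 of undifferentiated HBBko).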

How the results depend on the processing

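Member counts within each comparison moved by over 1.5 times in few settings: HBBko against WT undifferentiated from 19 to 8 when only those groups were fitted, HBBko against WT at 48 h from 6 to 10 with equal totals, and the first interaction from 4 to 2 with a pseudocount of 0.1 and 1 with no filter. With 1 library left out, the counts for HBBko against WT ran from 13 to 21, 3 to 6 and 21 to 22 at the successive stages, in WT from 21 to 26 and 28 to 30, in HBBko from 22 to 26 and 30 to 31, and in the interactions from 1 to 6 and 8 to 9. The first interaction gave 1 without WT 48 h replicate 1 or 3, HBBko undifferentiated replicate 1 or any HBBko 48 h library, 2 without WT undifferentiated replicate 2, WT 48 h replicate 2 or HBBko undifferentiated replicate 3, and 6 without WT undifferentiated replicate 1. HBBko against WT at 48 h gave 3 without WT 48 h replicate 3. With the replicate block the counts were 18, 9, 26, 24, 29, 29, 31, 4 and 12 in the order above, the second within 1.5 times of 6. Block calls in the paired comparisons that differ are given in the text, and no other call changed there.

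Among member values called in the fit described above or in its alternative, directions turned with equal totals alone, in 26 values. Sign changes of values called in neither fit were not counted. HBBko against WT at 5 d became 0.17 (ATG13), 0.052 (ATG2A), 0.23 (ATG9A), 0.18 (WIPI2), 0.14 (ATG3), 0.030 (ATG4B), 0.023 (ATG16L1) and 0.13 (TAX1BP1). WT from 48 h to 5 d became -0.45 (ATG101), -0.32 (BECN1), -0.57 (PIK3C3), -0.045 (WIPI1), -0.016 (ATG4B), -0.58 (ATG5), -0.33 (ATG10), -0.58 (ATG12), -0.13 (ATG16L1) and -0.53 (NBR1). HBBko from 48 h to 5 d became -0.042 (BECN1), -0.14 (PIK3C3), -0.19 (ATG4B), -0.32 (ATG5), -0.38 (ATG12), -0.30 (ATG16L1) and -0.038 (BNIP3L). ATG13 in WT over the first 48 h became -0.034. Of 2592 member values with no library left out 2373 kept their call, and of 2376 with 1 left out 2217 did. A kept call is the same direction called in both fits, or no call in either fit whatever the sign. The cause was not tested. Read depth is unknown.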
